A study of Mus musculus with 12 samples.

Results

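The 7 genes described here are the Tie receptor genes Tek and Tie1, the angiopoietin genes Angpt1 and Angpt2, and the angiopoietin-like genes Angptl1, Angptl2 and Angptl4, in fibroblasts of newborn mouse skin. They were selected on array values of this experiment, since Tek and Angptl1 ran in opposite directions across the sorted populations. Those 2 genes are therefore described without a test. Of the 7 genes, 6 were measured through a probe set that names a single gene, among 17097 genes in all, and Angptl2 was not analysed here. The other 4 measured genes, Tie1, Angpt1, Angpt2 and Angptl4, were tested.

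Dermal fibroblasts came from 3 female littermates at an age of 2 days and fell into 4 sorted populations. Each population was measured on 3 Affymetrix arrays, which gave 12 arrays. The labels name 3 biological replicates and no animal, and arrays that share a replicate number are taken here as 1 animal, since the design names 3 littermates. All sorted cells were gated for surface Pdgfra and CD34 and against CD45, CD117, CD31 and EpCam. The papillary population was CD26+ and lacked Dlk1 and Sca1, and the reticular population was Dlk1+ and lacked CD26 and Sca1. Both pre-adipogenic populations were Sca1+ and lacked CD26, and they are called Dlk1+ Sca1+ and Dlk1- Sca1+ after the remaining marker. The labels name no mutation, transgene or treatment and give no strain. RNA of 4500 cells per array was amplified over 21 cycles. With 3 animals of a single litter, p-values measure the spread between littermates. A lower level in a sorted population can mean fewer cells that carry the transcript or less of it per cell, which cannot be told apart.

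Tek, also called Tie2, is a receptor tyrosine kinase best known from blood vessel endothelium. Angpt1, made by perivascular and mesenchymal cells, activates it, while Angpt2 acts as a weaker ligand that can oppose Angpt1. Tie1 is a related receptor that binds angiopoietins poorly and modulates Tek. Angiopoietin-like proteins share the coiled coil and fibrinogen-like architecture of angiopoietins but do not act through the Tie receptors. Among them, Angptl1 is a secreted protein with reported effects on vessel growth, and Angptl4 inhibits lipoprotein lipase, the enzyme that releases fatty acids from circulating lipoproteins.

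Promoters of Tek, Tie1 and Angptl1 are shown for orientation. They are the 250 bases before the annotated start in RefSeq's GRCm38.p6, of Tek at chr4:94739039-94739288 on the plus strand, of Tie1 at chr4:118489850-118490099 on the minus strand and of Angptl1 at chr1:156838773-156839022 on the plus strand. Of the 7 members, 4 matched a RefSeq promoter by symbol. Capitals mark GGAA, the core of ETS factor sites, and TGACGT, part of the cAMP response element, each searched on both strands so that the reverse complement is marked too.
Tek: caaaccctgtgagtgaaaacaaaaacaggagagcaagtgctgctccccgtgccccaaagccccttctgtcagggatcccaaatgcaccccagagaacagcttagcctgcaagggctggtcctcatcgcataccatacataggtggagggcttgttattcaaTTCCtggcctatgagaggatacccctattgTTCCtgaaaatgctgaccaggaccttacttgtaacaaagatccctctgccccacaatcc
Tie1: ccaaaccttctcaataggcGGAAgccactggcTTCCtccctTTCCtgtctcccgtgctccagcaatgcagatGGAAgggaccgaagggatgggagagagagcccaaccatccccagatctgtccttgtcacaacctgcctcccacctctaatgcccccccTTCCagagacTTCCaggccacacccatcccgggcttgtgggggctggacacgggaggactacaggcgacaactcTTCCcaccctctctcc
Angptl1: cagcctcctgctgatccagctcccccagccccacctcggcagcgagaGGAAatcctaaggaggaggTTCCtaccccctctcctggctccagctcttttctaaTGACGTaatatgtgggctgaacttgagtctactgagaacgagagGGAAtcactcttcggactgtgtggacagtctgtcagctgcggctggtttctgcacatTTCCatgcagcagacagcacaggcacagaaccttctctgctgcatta
The ETS core matched 2 times in the Tek window, 7 times in that of Tie1 and 4 times in that of Angptl1. It occurs in 93.4% of 32851 promoter windows of this length, with a median of 3 matches. TGACGT matched 1 time in the Angptl1 window, 1 time in that of Angptl2, whose window is not shown and holds 2 ETS cores, and not in those of Tek and Tie1, and 6.5% of all windows hold it. The longer ETS form CCGGAA, which contains the core, is in 12% of windows, the GATA motif AGATAA in 10%, the E-box CACGTG in 6.0%, the TATA motif TATAAA in 12.4% and the forkhead motif TGTTTA in 12%. None of these letters were in the windows of Tek, Tie1, Angptl1 or Angptl2. A match is a string of letters and not a measured binding site.

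Levels below are log2 RMA values, where a step of 1 is a doubling of the normalized signal, and a difference is the mean of the population named first minus that of the other. Dpp4, which encodes CD26, lay between 10.18 and 10.97 in papillary arrays and between 6.10 and 6.53 in the others. Dlk1 lay between 12.82 and 13.04 in both Dlk1+ populations, between 11.18 and 11.54 in Dlk1- Sca1+ and between 9.82 and 10.10 in papillary cells. The log2 of the summed signal of 8 fibroblast markers was 14.76 to 15.04 on all arrays. Several arrays carried more signal of other cell types. The Dlk1+ Sca1+ array of animal 2 held the highest value of 7 of 17 endothelial markers, with Cdh5, an adhesion protein of vessel endothelium, at 7.76 against 6.09 and 6.02 in its group. It held the highest value of 0 of 10 pericyte and smooth muscle markers. Their summed log2 signal was 11.56 there, against 11.13 and 11.06 in its group. Of these, Rgs5 was 8.98 against 6.14 and 6.10, while Kcnj8 was 7.75 against 8.23 and 7.88. The Dlk1+ Sca1+ array of animal 3 held the highest value of 5 of 5 lymphatic markers, the Dlk1- Sca1+ array of animal 1 that of 8 of 8 epithelial and of 4 of 6 Schwann cell and melanocyte markers, and the reticular array of animal 2 that of 4 of 10 pericyte and smooth muscle markers. The log2 of the summed epithelial signal was 13.45 on that Dlk1- Sca1+ array, against 10.98 and 11.17 in its group. It was also high on the papillary array of animal 1, at 11.84 against 10.58 and 9.79, and on the reticular array of animal 1, at 12.02 against 9.96 and 10.27. In Dlk1+ Sca1+ arrays it was 11.587, 12.001 and 10.701. These 6 arrays, chosen after their values were seen, were each left out in turn, and the steps of Tek and Angptl1 and any changed call of a tested member are given without them.

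Tek was lowest in papillary cells and highest in Dlk1- Sca1+ cells. Its level was 5.26, 5.50 and 5.07 in the papillary arrays of animals 1, 2 and 3, and 6.99, 6.87 and 6.74 in the reticular arrays. It was 8.11, 8.05 and 8.22 in Dlk1+ Sca1+ cells, and 9.77, 9.68 and 9.86 in Dlk1- Sca1+ cells. The 4 groups of values did not overlap, and the order papillary, reticular, Dlk1+ Sca1+, Dlk1- Sca1+ held in each animal. The means were 5.28 ± 0.22, 6.87 ± 0.13, 8.13 ± 0.09 and 9.77 ± 0.09 (SD, n = 3). From papillary to Dlk1- Sca1+ cells the span was 22.5-fold.

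The 3 steps of the Tek series lay between 2.39-fold and 3.12-fold. Papillary minus reticular was -1.59, or 3.01-fold, and Dlk1+ Sca1+ minus reticular was 1.26, or 2.39-fold. The last step, Dlk1- Sca1+ minus Dlk1+ Sca1+, was 1.64, or 3.12-fold, and it was 1.66, 1.63 and 1.64 in animals 1, 2 and 3. Both Sca1+ populations thus lay above both populations sorted as Sca1-. With the arrays high in markers of other cell types left out in turn, the last difference was 1.60 to 1.69, papillary minus reticular was -1.59 to -1.53 and Dlk1+ Sca1+ minus reticular 1.21 to 1.32.

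Angptl1 was highest in reticular cells and lowest in papillary cells. Its level was 5.26, 5.33 and 5.65 in the papillary arrays of animals 1, 2 and 3, and 11.00, 11.14 and 10.83 in the reticular arrays. It was 10.16, 9.78 and 9.88 in Dlk1+ Sca1+ cells, and 6.88, 6.66 and 6.91 in Dlk1- Sca1+ cells. No 2 groups overlapped, and both Dlk1+ populations lay far above both Dlk1- populations. The means were 5.41 ± 0.21, 10.99 ± 0.16, 9.94 ± 0.20 and 6.82 ± 0.14 (SD, n = 3), and reticular exceeded papillary cells 47.7-fold.

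The reverse order of Tek and Angptl1 held among the 3 populations without CD26. From reticular to Dlk1+ Sca1+ to Dlk1- Sca1+ cells, the level of Tek went up by 1.26 and then 1.64, while Angptl1 went by -1.05 and then -3.12, or 2.07-fold and 8.71-fold. With the same arrays left out in turn, the Angptl1 steps were -1.04 to -0.97 and -3.20 to -3.15, and papillary minus reticular was -5.57 to -5.50. In papillary cells both genes had their lowest level, so the patterns were not opposite there. Angptl1 has a second probe set, which gave the same order. It read 5.96, 5.41 and 5.17 in papillary arrays, 10.80, 10.72 and 10.43 in reticular, 10.03, 9.70 and 9.51 in Dlk1+ Sca1+ and 7.24, 6.72 and 6.65 in Dlk1- Sca1+. On it the reticular over papillary ratio was 35.2-fold and the ratio of Dlk1+ Sca1+ over Dlk1- Sca1+ 7.34-fold.

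**Figure D1:**
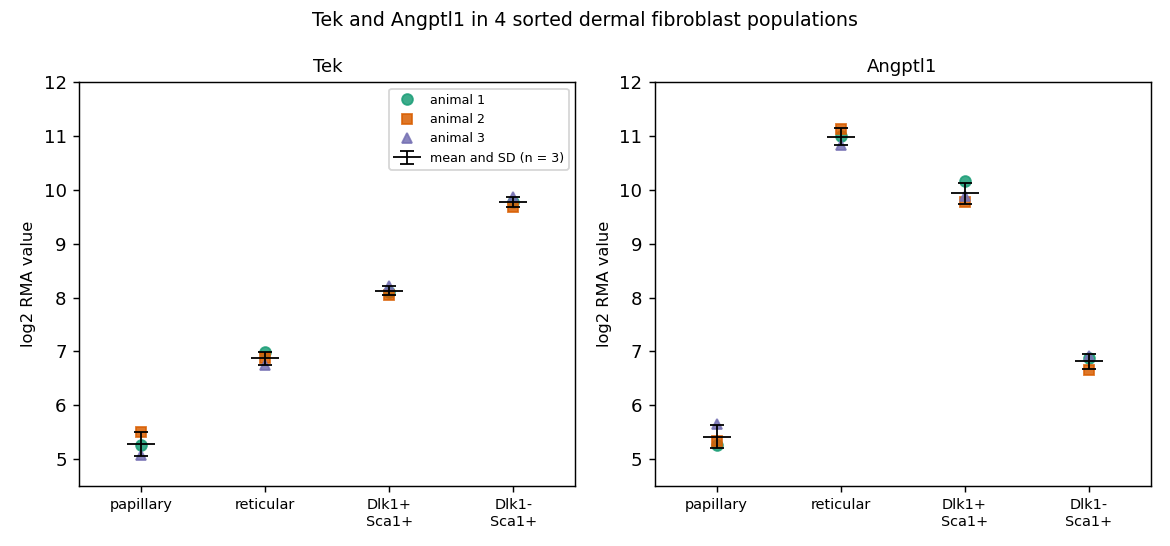
The plot shows the log2 RMA value of Tek (left) and Angptl1 (right) on the vertical axis in the 4 populations, with a symbol per animal and the mean and SD over 3 animals as bars. Tek steps up from 5.28 in papillary to 9.77 in Dlk1- Sca1+ cells, while Angptl1 peaks at 10.99 in reticular cells and is at 6.82 in Dlk1- Sca1+ cells.

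Tie1, the second Tie receptor, lay near the lower quartile of the arrays, which was 4.93 to 5.08. Its level was 4.88, 4.90 and 4.84 in papillary cells, 4.97, 5.19 and 5.05 in reticular cells and 5.05, 5.0 and 4.84 in Dlk1- Sca1+ cells. In Dlk1+ Sca1+ cells it was 4.86, 5.54 and 5.65, so animals 2 and 3 stood above every other array and animal 1 did not. Papillary cells were lower than Dlk1+ Sca1+ cells by limma, at -0.48 ± 0.16 (SE, n = 3) with an adjusted p of 0.0416, although the groups overlapped. That call was lost when any array of the pair except Dlk1+ Sca1+ animal 1 was left out, with adjusted p between 0.0831 and 0.182. It was also lost when only those 6 arrays were fitted (adjusted p = 0.0885). Without Dlk1+ Sca1+ animal 1, Dlk1+ Sca1+ cells exceeded reticular cells by 0.53 (adjusted p = 0.00485) and Dlk1- Sca1+ cells lay below them at -0.63 (adjusted p = 0.00177). With all arrays neither passed, at 0.28 (adjusted p = 0.416) and at -0.39 with a 95% interval from -0.73 to -0.04 (adjusted p = 0.205). The remaining differences of Tie1 were -0.20 for papillary minus reticular (adjusted p = 0.46), -0.09 for papillary minus Dlk1- Sca1+ (adjusted p = 0.781) and -0.11 for Dlk1- Sca1+ minus reticular (adjusted p = 0.768).

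Vessel markers were compared with Tek and Tie1 within the Sca1+ groups. In the Dlk1+ Sca1+ array of animal 2, where Pecam1, the gene of the gated surface protein CD31, was 8.74 against 7.78 and 7.94, Tek was the lowest of its 3 values. Tie1 was high in that array and in the array of animal 3, where the lymphatic markers Lyve1 (7.77 against 6.02 and 6.07) and Reln (7.08 against 4.95 and 5.22) were high. The summed endothelial signal, without the bright gene Ramp2 and taken so after the data were seen, was 10.22 to 10.32 (log2) in papillary, 10.53 to 10.72 in reticular, 10.46 to 10.98 on Dlk1+ Sca1+ and 10.21 to 10.54 on Dlk1- Sca1+ arrays. With Ramp2 it was 13.15 to 13.17, 13.14 to 13.20, 13.08 to 13.15 and 12.99 to 13.05. Ramp2 alone read 12.76 to 12.95 across the arrays, so the sum with it mostly follows this gene. Without Ramp2 the Dlk1- Sca1+ arrays did not exceed the highest reticular and Dlk1+ Sca1+ arrays, and with Ramp2 they lay below all others. Within their group, the array of animal 1 had the most, at 10.54 without Ramp2 against 10.21 and 10.21, which was above all papillary arrays. It had Cdh5 at 7.05 against 5.85 and 5.58, and Pecam1 at 8.06 against 7.46 and 7.53. Tek was 9.77 on that array, against 9.68 and 9.86. No marker of this list was at 0, since RMA values have a floor above it, but Cd93 and Emcn lay between 4.5 and 5.28 on all other arrays than Dlk1+ Sca1+ animal 2 and, for Cd93, Dlk1- Sca1+ animal 1. Whether vessel cells had a part in Tek or Tie1 was not tested.

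The share of endothelial markers called was at or below that of all genes in each of the 6 comparisons. In Dlk1- Sca1+ against Dlk1+ Sca1+ cells, limma called 0 of 17 endothelial markers at an adjusted p under 0.05, where it called 7.36% of all genes, 3 were lower and 0 higher at an unadjusted p under 0.05, and their median difference was -0.18 against 0.01 over all genes. With the replicate block, and without Dlk1- Sca1+ animal 1 or Dlk1+ Sca1+ animal 3, 1 of the 17 was called lower. Against reticular cells, 0 of 17 were called higher in Dlk1- Sca1+ cells, none at an unadjusted p under 0.05, and 3 were called lower, namely Eng, Erg and Kdr (5 with the replicate block, and 1 without animal 1 or 2). That is 17.6% of the list against 18.2% of all genes. Papillary cells were called lower than reticular cells for 3 of the 17, which were Pecam1, Kdr and Flt1, or 17.6% against 27.5% of all genes.

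**Figure D2:**
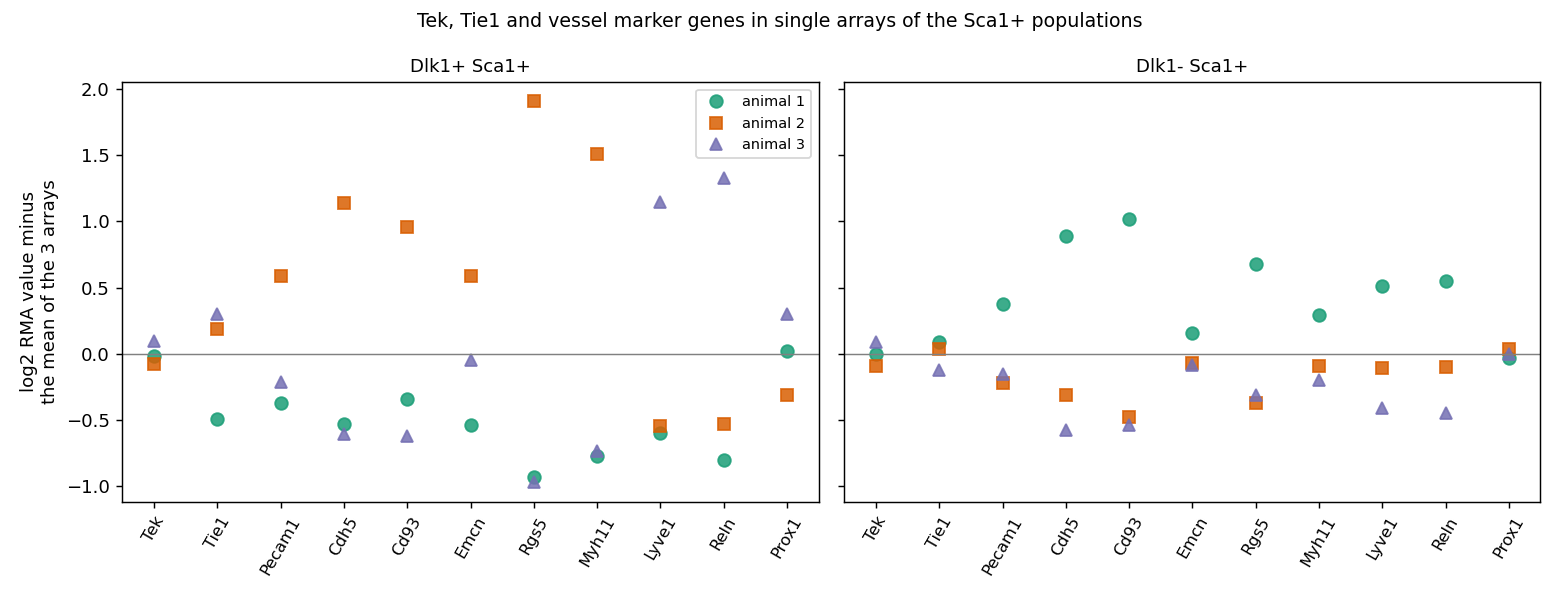
For the 3 Dlk1+ Sca1+ arrays (left) and the 3 Dlk1- Sca1+ arrays (right), the vertical axis gives each gene's log2 RMA value minus the mean of the 3 arrays, with a symbol per animal. Cdh5 and Rgs5 stand high in Dlk1+ Sca1+ animal 2 and Lyve1 and Reln in animal 3. Cdh5 and Cd93 stand high in Dlk1- Sca1+ animal 1. The Tek values of each group stay within 0.18 of each other.

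Angpt1, the activating ligand of Tek, was lowest in papillary cells. Its level was 6.13, 6.06 and 6.13 in papillary arrays, 7.24, 7.44 and 7.01 in reticular arrays, 7.62, 7.20 and 7.16 in Dlk1+ Sca1+ arrays and 6.61, 6.72 and 6.68 in Dlk1- Sca1+ arrays. The papillary and the Dlk1- Sca1+ values each stood apart from all others, and the reticular and Dlk1+ Sca1+ values overlapped. Papillary cells were lower than reticular cells by 2.18-fold, at -1.12 ± 0.13 (SE, n = 3, adjusted p = 1.73e-05), and lower than Dlk1+ Sca1+ cells by 2.33-fold, at -1.22 (adjusted p = 6.73e-06). Dlk1- Sca1+ cells held a middle level. They were below reticular cells at -0.56 (adjusted p = 0.00707) and below Dlk1+ Sca1+ cells at -0.66 (adjusted p = 0.00577), and above papillary cells, with papillary minus Dlk1- Sca1+ at -0.56 (adjusted p = 0.00429). Dlk1+ Sca1+ minus reticular was 0.10 with a 95% interval from -0.18 to 0.37 (adjusted p = 0.822). Without all arrays of animal 2 the adjusted p rose to 0.0524 for papillary against Dlk1- Sca1+ cells and to 0.0969 for Dlk1- Sca1+ against reticular cells, and without animal 1 it was 0.10 for the pair of Sca1+ populations.

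Angpt2, the ligand that can oppose Angpt1, was highest in reticular cells and lowest in papillary cells. Its level was 6.47, 6.61 and 6.28 in papillary arrays, 8.15, 8.02 and 7.91 in reticular arrays, 7.17, 7.44 and 7.31 in Dlk1+ Sca1+ arrays and 6.82, 7.07 and 6.88 in Dlk1- Sca1+ arrays. No 2 groups overlapped, and the order of the groups was that of Angptl1. Papillary cells lay 2.98-fold below reticular cells, at -1.57 ± 0.11 (SE, n = 3, adjusted p = 2.1e-07). They also lay below Dlk1+ Sca1+ cells, at -0.85 (adjusted p = 4.39e-05), and below Dlk1- Sca1+ cells, at -0.47 (adjusted p = 0.00518, and 0.0808 without animal 3). Dlk1+ Sca1+ minus reticular was -0.72 (adjusted p = 0.000969) and Dlk1- Sca1+ minus reticular -1.10 (adjusted p = 1.28e-05). Both Sca1+ populations had less Angpt2 and more Tek than reticular cells on these arrays. Between the Sca1+ populations the difference was -0.38 (adjusted p = 0.0505), lower in Dlk1- Sca1+ cells in 3 of 3 animals, and with the animal as a replicate block the adjusted p was 0.018. Without Dlk1+ Sca1+ animal 1 it was 0.0465 and without Dlk1- Sca1+ animal 2 it was 0.036.

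The second probe set of Angpt2 did not show this pattern. It lay between 5.53 and 5.77 on all 12 arrays, and its adjusted p values were 0.556 and above in the 6 comparisons of a fit over all named probe sets. Pericyte and smooth muscle genes moved with Angpt2 in part. The log2 of the summed signal of 10 such markers was 10.22 to 10.43 in papillary, 11.72 to 12.21 in reticular, 11.06 to 11.56 on Dlk1+ Sca1+ and 11.14 to 11.25 on Dlk1- Sca1+ arrays, and 5 of the 10 were called lower in papillary than in reticular cells, against 13.6% of all genes. In the reticular arrays of animals 1, 2 and 3 this sum was 11.72, 12.21 and 11.75, where Angpt2 was 8.15, 8.02 and 7.91. Single markers of the list varied differently among these arrays. Rgs5 was 7.93, 9.52 and 6.54, Kcnj8 was 8.35, 8.23 and 7.72, and Notch3 was 9.99, 10.01 and 10.09. Without the reticular array of animal 2, papillary minus reticular was -1.58 for Angpt2 (adjusted p = 3.32e-06), -1.02 for Angpt1 (adjusted p = 0.000124) and -5.50 for Angptl1. For Angpt1 and Angpt2, leaving out any 1 of the 6 arrays named above as high in markers of other cell types changed no call. The part of pericytes in these differences was not tested.

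Angpt4, a further Tek ligand and no member of the 7, is named from a list of related genes. Its level was 6.18, 6.52 and 6.45 in papillary, 6.86, 7.31 and 6.95 in reticular, 7.93, 7.59 and 7.84 on Dlk1+ Sca1+ and 6.13, 6.85 and 6.59 on Dlk1- Sca1+ arrays. It was highest in Dlk1+ Sca1+ cells, above papillary cells 2.65-fold (papillary minus Dlk1+ Sca1+ -1.40 ± 0.17, SE, n = 3, adjusted p = 3.75e-05) and above Dlk1- Sca1+ cells 2.4-fold (Dlk1- Sca1+ minus Dlk1+ Sca1+ -1.26, adjusted p = 0.000569). Against reticular cells Dlk1+ Sca1+ cells were higher by 0.75 (adjusted p = 0.0181), which became 0.0676 to 0.0736 without animal 1 or animal 3 of either group. Without animal 1 or 3 in all populations the adjusted p was 0.0603 and 0.303. Papillary minus reticular was -0.66 (adjusted p = 0.0122), which became 0.0596 without papillary animal 1, 0.0629 without reticular animal 2 and 0.0904 without animal 3 in all populations. Dlk1- Sca1+ minus reticular was -0.52 (adjusted p = 0.0592, with 0.0346 under the replicate block and 0.0178 without Dlk1- Sca1+ animal 2). A second probe set gave the same order of the 4 means. Angptl6 differed between papillary and Dlk1+ Sca1+ cells (-0.30, adjusted p = 0.0478), a call lost without any single array except Dlk1+ Sca1+ animal 1 (adjusted p = 0.0561 to 0.168), and with the replicate block papillary cells were also lower than reticular (-0.24, adjusted p = 0.00947, against 0.111 without the block and 0.0366 without reticular animal 1) and Dlk1- Sca1+ cells (-0.19, adjusted p = 0.0321). For Angptl7 and Angptl8 the adjusted p was 0.0992 or above in all 6 comparisons, although for Angptl8 it was 0.035 between papillary and Dlk1+ Sca1+ cells without Dlk1+ Sca1+ animal 1.

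**Figure D3:**
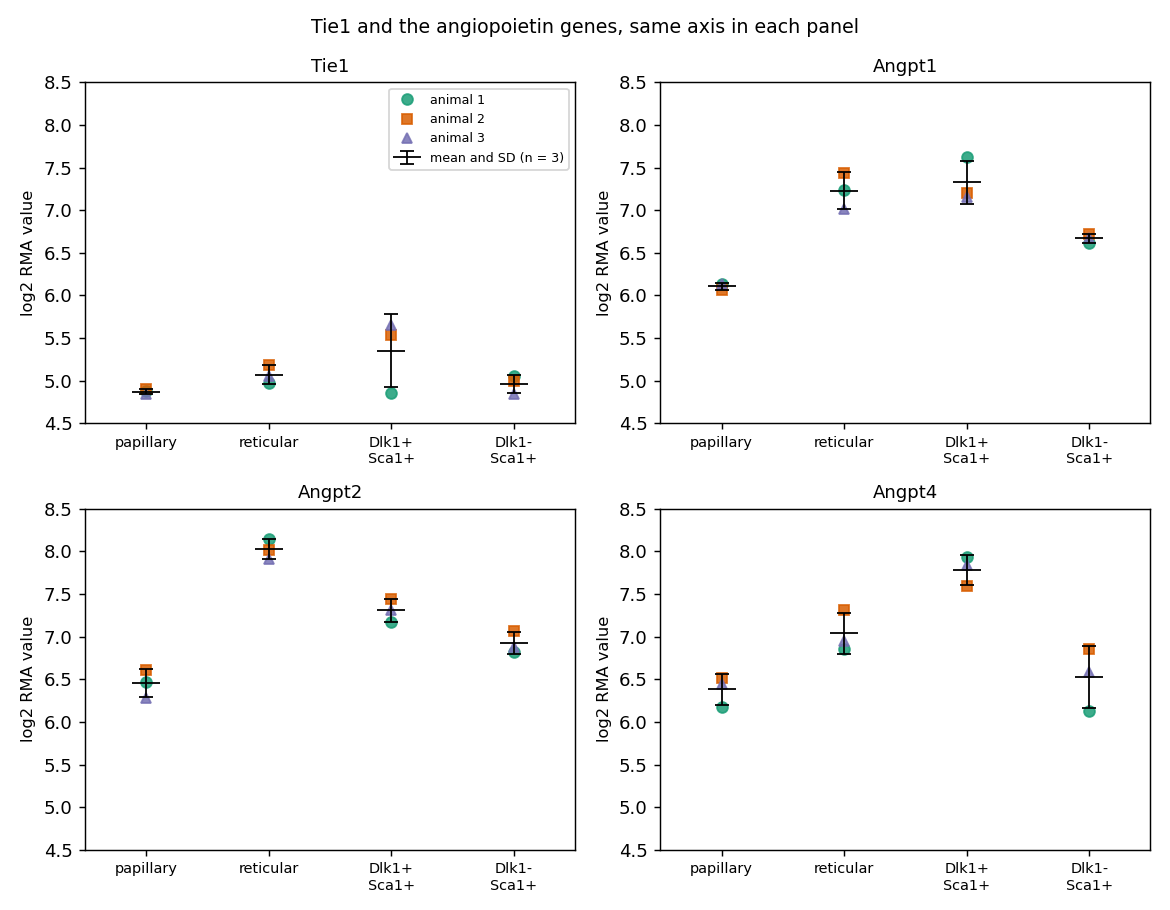
Each panel gives the log2 RMA value of Tie1, Angpt1, Angpt2 or Angpt4 in the 4 populations on the same axis, with a symbol per animal and the mean and SD over 3 animals as bars. Angpt2 peaks in reticular cells at 8.03, Angpt4 in Dlk1+ Sca1+ cells at 7.79, and Tie1 is above 5.5 on 2 Dlk1+ Sca1+ arrays.

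Angptl4, the lipase inhibitor, was highest in Dlk1- Sca1+ cells. On the probe set used its level was 9.72, 10.36 and 9.93 in papillary arrays, 9.56, 10.12 and 9.84 in reticular arrays, 9.77, 10.26 and 10.23 in Dlk1+ Sca1+ arrays and 10.39, 10.75 and 10.74 in Dlk1- Sca1+ arrays. Animal 1 had the lowest value in each population, and the Dlk1- Sca1+ values lay above all others. Dlk1- Sca1+ cells exceeded reticular cells 1.73-fold (0.79 ± 0.19, SE, n = 3, adjusted p = 0.0106, and 0.163 without animal 3). They exceeded papillary cells 1.54-fold (papillary minus Dlk1- Sca1+ -0.62, adjusted p = 0.0262), a call lost without papillary animal 1 (0.122) or 3 (0.0792), without Dlk1- Sca1+ animal 2 (0.0847) or 3 (0.0861), and without animal 3 altogether (0.267). Dlk1- Sca1+ minus Dlk1+ Sca1+ was 0.54 with a 95% interval from 0.13 to 0.95 (adjusted p = 0.12). It was 0.62, 0.49 and 0.51 in animals 1, 2 and 3, and with the replicate block its adjusted p was 0.00214. Of the 6 arrays high in markers of other cell types, papillary animal 1 was the only one whose removal changed a call of Angptl4. Schwann cell and melanocyte markers were also higher in Dlk1- Sca1+ than in papillary cells. Their summed log2 signal was 9.03 to 9.10 in papillary arrays and 10.68, 9.55 and 9.33 in Dlk1- Sca1+ arrays. In reticular arrays it was 9.10 to 9.30, and in Dlk1+ Sca1+ arrays 9.82, 9.42 and 9.43. Between the Sca1+ populations 0 of 6 were called, against 7.36% of all genes. Between papillary and Dlk1- Sca1+ cells, 4 of 6 (Mitf, Dct, Tyr and Pmel) were called lower in papillary cells, against 13.3% of all genes. That count was 1 without papillary animal 1 and 2 without papillary animal 2. Without Dlk1- Sca1+ animal 1, papillary minus Dlk1- Sca1+ was -0.74 for Angptl4 (adjusted p = 0.0177) and -4.49 for Tek. The part of these cells in the differences was not tested. Papillary minus reticular was 0.16 (adjusted p = 0.639), papillary minus Dlk1+ Sca1+ -0.08 (adjusted p = 0.834) and Dlk1+ Sca1+ minus reticular 0.25 (adjusted p = 0.607).

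The second Angptl4 probe set showed larger differences. It read 5.69, 6.34 and 5.91 in papillary arrays, 6.26, 7.23 and 6.72 in reticular arrays, 6.59, 7.80 and 7.56 in Dlk1+ Sca1+ arrays and 7.98, 8.52 and 8.23 in Dlk1- Sca1+ arrays. Papillary minus Dlk1- Sca1+ was -2.26, or 4.8-fold (adjusted p = 8.62e-05), and Dlk1- Sca1+ minus reticular 1.51, or 2.84-fold (adjusted p = 0.00391). It also separated papillary from Dlk1+ Sca1+ cells, at -1.34 (adjusted p = 0.00461), which the probe set used did not. Both probe sets placed Dlk1- Sca1+ cells highest, and they disagreed on whether papillary cells stood below the others.

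**Figure D4:**
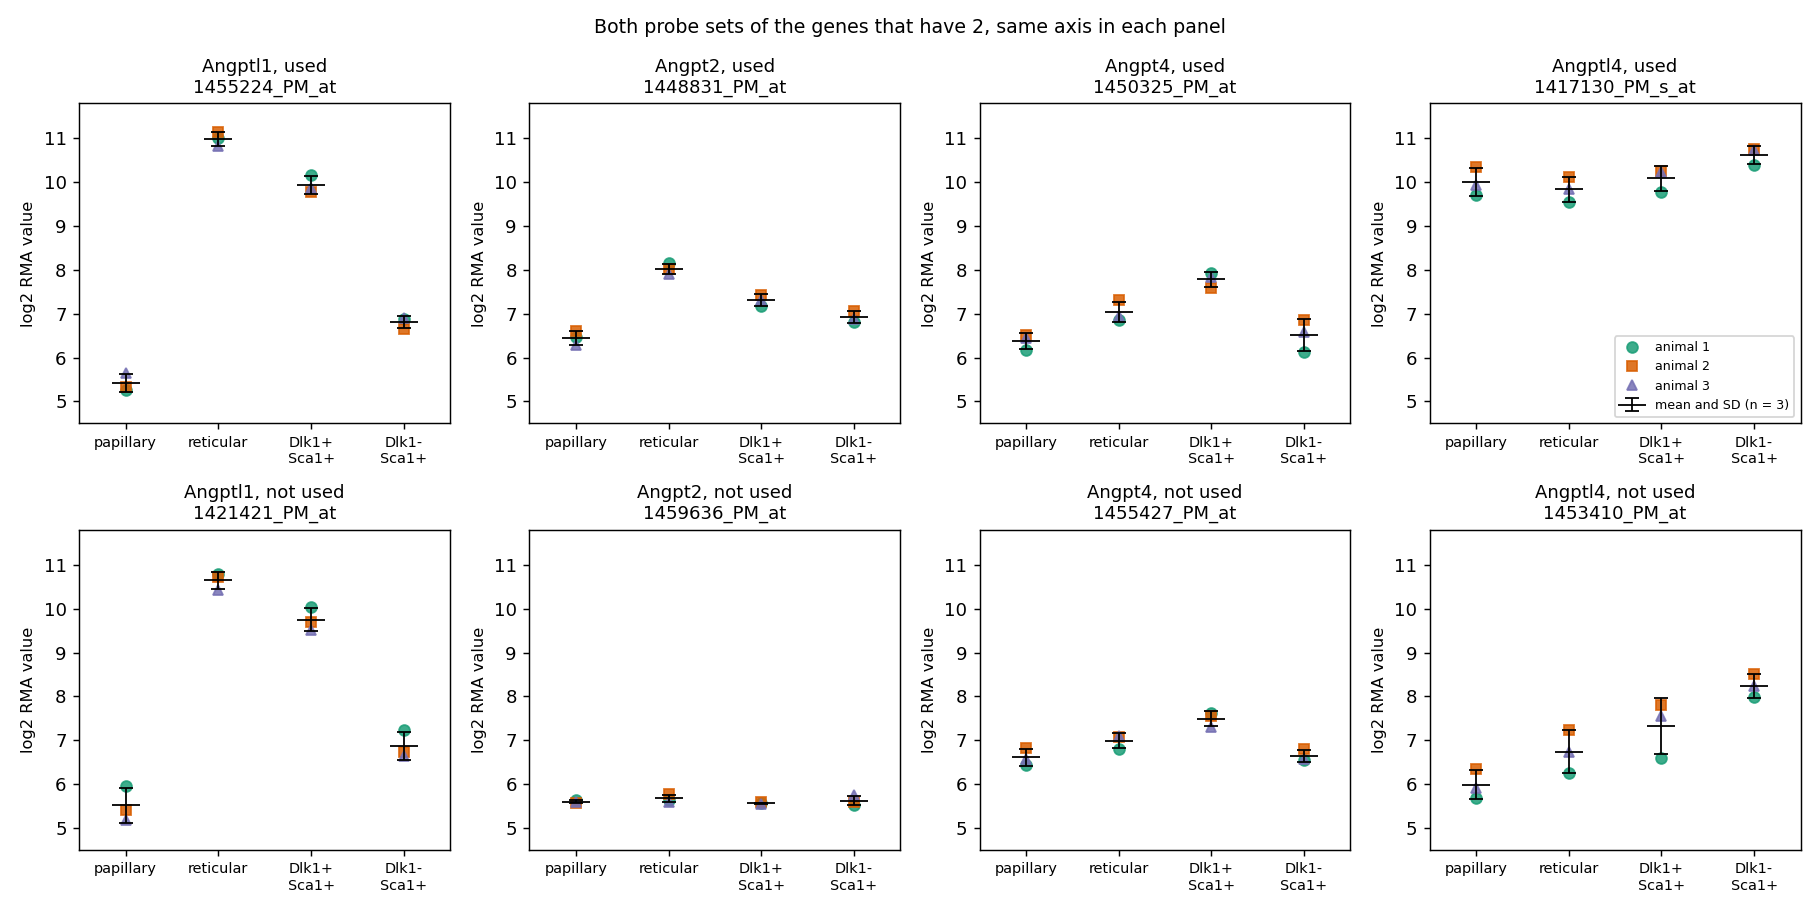
The upper row shows the probe set used and the lower row the other probe set of Angptl1, Angpt2, Angpt4 and Angptl4, as log2 RMA values in the 4 populations on the same axis, with a symbol per animal and the mean and SD over 3 animals as bars. Both probe sets of Angptl1 and both of Angpt4 give the same order, the second Angpt2 probe set is flat near 5.60, and the second Angptl4 probe set spans 5.98 to 8.24.

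Counted over the 4 tested members, most calls were lower levels in papillary cells. Papillary minus reticular had 2 of 4 called lower and 0 higher, where limma called 13.6% of all genes lower and 13.9% higher, or 27.5% in either direction. Papillary minus Dlk1+ Sca1+ had 3 lower and 0 higher, against 13.9% and 14.1% of all genes, or 28.0% in all. Papillary minus Dlk1- Sca1+ had 3 lower and 0 higher, against 13.3% and 13.1%, or 26.4% in all. In each of these 3 comparisons 0 members were higher at an unadjusted p under 0.05 too. The genes were Angpt1 and Angpt2 in all 3, with Tie1 added against Dlk1+ Sca1+ and Angptl4 against Dlk1- Sca1+ cells. Without animal 3 the last comparison kept 1, which was Angpt1.

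Among the populations without CD26 fewer genes differed in general. Dlk1+ Sca1+ minus reticular had 1 member lower, Angpt2, and 0 higher (also 0 at an unadjusted p under 0.05), where 4.37% of all genes were called lower and 4.06% higher, or 8.43% in all. Dlk1- Sca1+ minus reticular had 2 lower, Angpt1 and Angpt2, and 1 higher, Angptl4, against 8.80% and 9.36%, or 18.2% in all. Dlk1- Sca1+ minus Dlk1+ Sca1+ had 1 lower, Angpt1, and 0 higher (1 at an unadjusted p under 0.05), against 4.13% and 3.23%, or 7.36% in all. With the replicate block this last comparison had 2 lower, with Angpt2 added, and 1 higher, Angptl4. Without Dlk1+ Sca1+ animal 1 it had 3 members called (Tie1, Angpt1 and Angpt2) and Dlk1+ Sca1+ minus reticular 2 (Tie1 and Angpt2). Without Dlk1- Sca1+ animal 2 it had 2.

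Genes that act around the Tie receptors were counted on a list of 23. Papillary cells were lower for 7 and higher for 1 (Grb2, an adaptor protein) against reticular and likewise against Dlk1+ Sca1+ cells (5 and 0 without animal 2 or 3), and lower for 5 against Dlk1- Sca1+ cells, where the replicate block added 3 that were higher. These calls are 34.8%, 34.8% and 21.7% of the list, against 27.5%, 28.0% and 26.4% of all genes, so the list was called about as often as genes in general. The list's median difference was -0.16, -0.18 and -0.09 in these comparisons, against -0.01, 0.00 and 0.00 over all genes. Klf2, a transcription factor known from flow-exposed endothelium, averaged 7.31 in papillary, 8.85 in reticular, 9.30 in Dlk1+ Sca1+ cells and 9.05 in Dlk1- Sca1+ cells. Papillary minus reticular was -1.54 for Klf2 (adjusted p = 5.32e-07), minus Dlk1+ Sca1+ -1.99 (adjusted p = 3.42e-08) and minus Dlk1- Sca1+ -1.74 (adjusted p = 1.35e-07). Itga5, a fibronectin receptor subunit, averaged 8.94, 9.88, 9.75 and 9.99 in the same order, and papillary cells were lower in all 3 comparisons (adjusted p = 2.29e-06, 6.87e-06 and 6.26e-07). For Klf2 and Itga5 papillary cells stood below all others. Grb2 had its highest mean in papillary cells, and Svep1, a further listed gene, its lowest mean in Dlk1- Sca1+ cells.

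Between the remaining populations, too, the list was called at rates near those of all genes. In Dlk1- Sca1+ against Dlk1+ Sca1+ cells, 1 was higher and 1 lower (3 lower with the replicate block), or 8.70% against 7.36% of all genes. Svep1, a matrix protein reported to bind Tie1, was the lower one, at 9.29 ± 0.30 against 10.20 ± 0.12 (SD, n = 3), a difference of -0.90 (adjusted p = 0.000607). Grb14, an adaptor that binds receptor kinases including Tek, was the higher one, at 5.31 against 4.89 (0.43, adjusted p = 0.0324). The Grb14 call was lost without any single array of the pair except Dlk1+ Sca1+ animal 3 (adjusted p = 0.0742 to 0.132). Dlk1- Sca1+ minus reticular had 4 lower and 1 higher of 23, with 6 and 2 under the replicate block and 3 calls in all without reticular animal 1 or 2 or Dlk1- Sca1+ animal 1 or 3. That is 21.7% against 18.2% of all genes. Dlk1+ Sca1+ minus reticular had 1 higher, or 4.35% against 8.43%, which was Klf2 (0.45, adjusted p = 0.0315, and 0.0554 to 0.131 without any single array except reticular animal 2).

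Of 18 listed genes around Angptl4, its regulators and lipoprotein lipase, more were higher than lower in the Sca1+ populations. Dlk1+ Sca1+ minus reticular had 7 higher, against 4.06% of all genes, and 0 lower (0 lower at an unadjusted p under 0.05 too), with 4 higher without reticular animal 2 or 3, and Dlk1- Sca1+ minus reticular had 8 higher, against 9.36% of all genes, and 1 lower. The median difference was 0.20 and 0.22, against -0.01 over all genes in both. Dlk1- Sca1+ minus Dlk1+ Sca1+ had 4 higher and 0 lower (1 lower at an unadjusted p under 0.05), or 22.2% against 7.36% of all genes. Without animal 3 it had 1 higher. Lpl, the lipase that Angptl4 inhibits, averaged 9.11 in papillary, 10.75 in reticular, 12.19 in Dlk1+ Sca1+ cells and 12.17 in Dlk1- Sca1+ cells, so the Sca1+ populations exceeded reticular cells by 1.43 (adjusted p = 3.74e-06) and 1.41 (adjusted p = 1.58e-06). Pparg, a nuclear receptor of fat cell formation that induces Angptl4, averaged 8.30, 7.97, 9.82 and 10.40. Dlk1- Sca1+ minus Dlk1+ Sca1+ was 0.58 for Pparg (adjusted p = 0.00427, and 0.0505 without animal 3) and -0.02 for Lpl (adjusted p = 0.97).

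Pcsk5 and Plin2, on the same list, had their highest mean in Dlk1- Sca1+ cells. Pcsk5, a proprotein convertase, averaged 7.38, 8.98, 9.88 and 10.20 in papillary, reticular, Dlk1+ Sca1+ and Dlk1- Sca1+ cells, and papillary minus Dlk1- Sca1+ was -2.82 (adjusted p = 2.64e-09). Plin2, a lipid droplet protein, averaged 8.60, 9.05, 9.98 and 10.45, and papillary minus Dlk1- Sca1+ was -1.85 (adjusted p = 2.29e-07). Against Dlk1- Sca1+ cells, papillary cells were lower for 9 of the 18 and higher for 2, or 61.1% against 26.4% of all genes, with a median of -0.35 against 0.00 over all genes. Against Dlk1+ Sca1+ cells they were lower for 7 and higher for 1, or 44.4% against 28.0% of all genes. Against reticular cells they were lower for 4 and higher for 5, or 50% against 27.5% of all genes (3 and 2 without papillary animal 1, and 1 higher without animal 1 or 3 in all populations). Pparg was among the 5 (0.33, adjusted p = 0.0333), a call that 4 of the 6 single arrays decided, with adjusted p of 0.101 to 0.141 without papillary animal 1 or 3 or reticular animal 1, and 0.0504 without reticular animal 3.

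VEGF ligands and receptors, a second pathway of vessel growth, were measured for 10 genes. Papillary cells were lower than reticular cells for 5 of them and higher for 0 (0 at an unadjusted p under 0.05 too, and 3 lower without animal 2), against 13.6% of all genes lower, with a median of -0.33 against -0.01 over all genes. Vegfd, a ligand of the lymphatic receptor, averaged 6.48 in papillary, 8.52 in reticular, 9.66 in Dlk1+ Sca1+ cells and 9.31 in Dlk1- Sca1+ cells, and papillary minus Dlk1+ Sca1+ was -3.18 (adjusted p = 6.71e-08). Vegfa, the main ligand for blood vessels, averaged 8.42, 9.69, 9.66 and 9.92, with papillary minus reticular at -1.27 (adjusted p = 3.51e-07). Papillary cells thus had the lowest level of both ligands, as of Angpt1 and Angpt2. Kdr, the main VEGF receptor of endothelium, averaged 5.74, 6.95, 6.37 and 6.05, and reticular cells exceeded papillary (papillary minus reticular -1.21, adjusted p = 0.000231) and Dlk1- Sca1+ cells (Dlk1- Sca1+ minus reticular -0.90, adjusted p = 0.00387, and 0.0983 without animal 3). Nrp2, a co-receptor, averaged 9.74, 9.56, 8.63 and 9.34, and papillary cells exceeded Dlk1+ Sca1+ cells (papillary minus Dlk1+ Sca1+ 1.11, adjusted p = 9.97e-06). Papillary cells were lower for 4 and higher for 1 of the 10 against Dlk1+ Sca1+ cells (2 and 1 without animal 2), or 50% against 28.0% of all genes. Against Dlk1- Sca1+ cells they were lower for 2 and higher for 2 (0 higher without papillary animal 1 or 3 or Dlk1- Sca1+ animal 2), or 40% against 26.4%. Among the rest, Dlk1+ Sca1+ minus reticular had 1 higher and 2 lower (0 and 1 without animal 2 or 3), or 30% against 8.43% of all genes. Dlk1- Sca1+ minus reticular had 1 and 3 (0 and 2 without animal 2 or 3), or 40% against 18.2%. Dlk1- Sca1+ minus Dlk1+ Sca1+ had 1 and 1, or 20% against 7.36%. The last counts were 2 and 2 with the replicate block, 1 and 0 without Dlk1+ Sca1+ animal 1, and 0 and 0 without animal 1 in both populations.

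**Figure D5:**
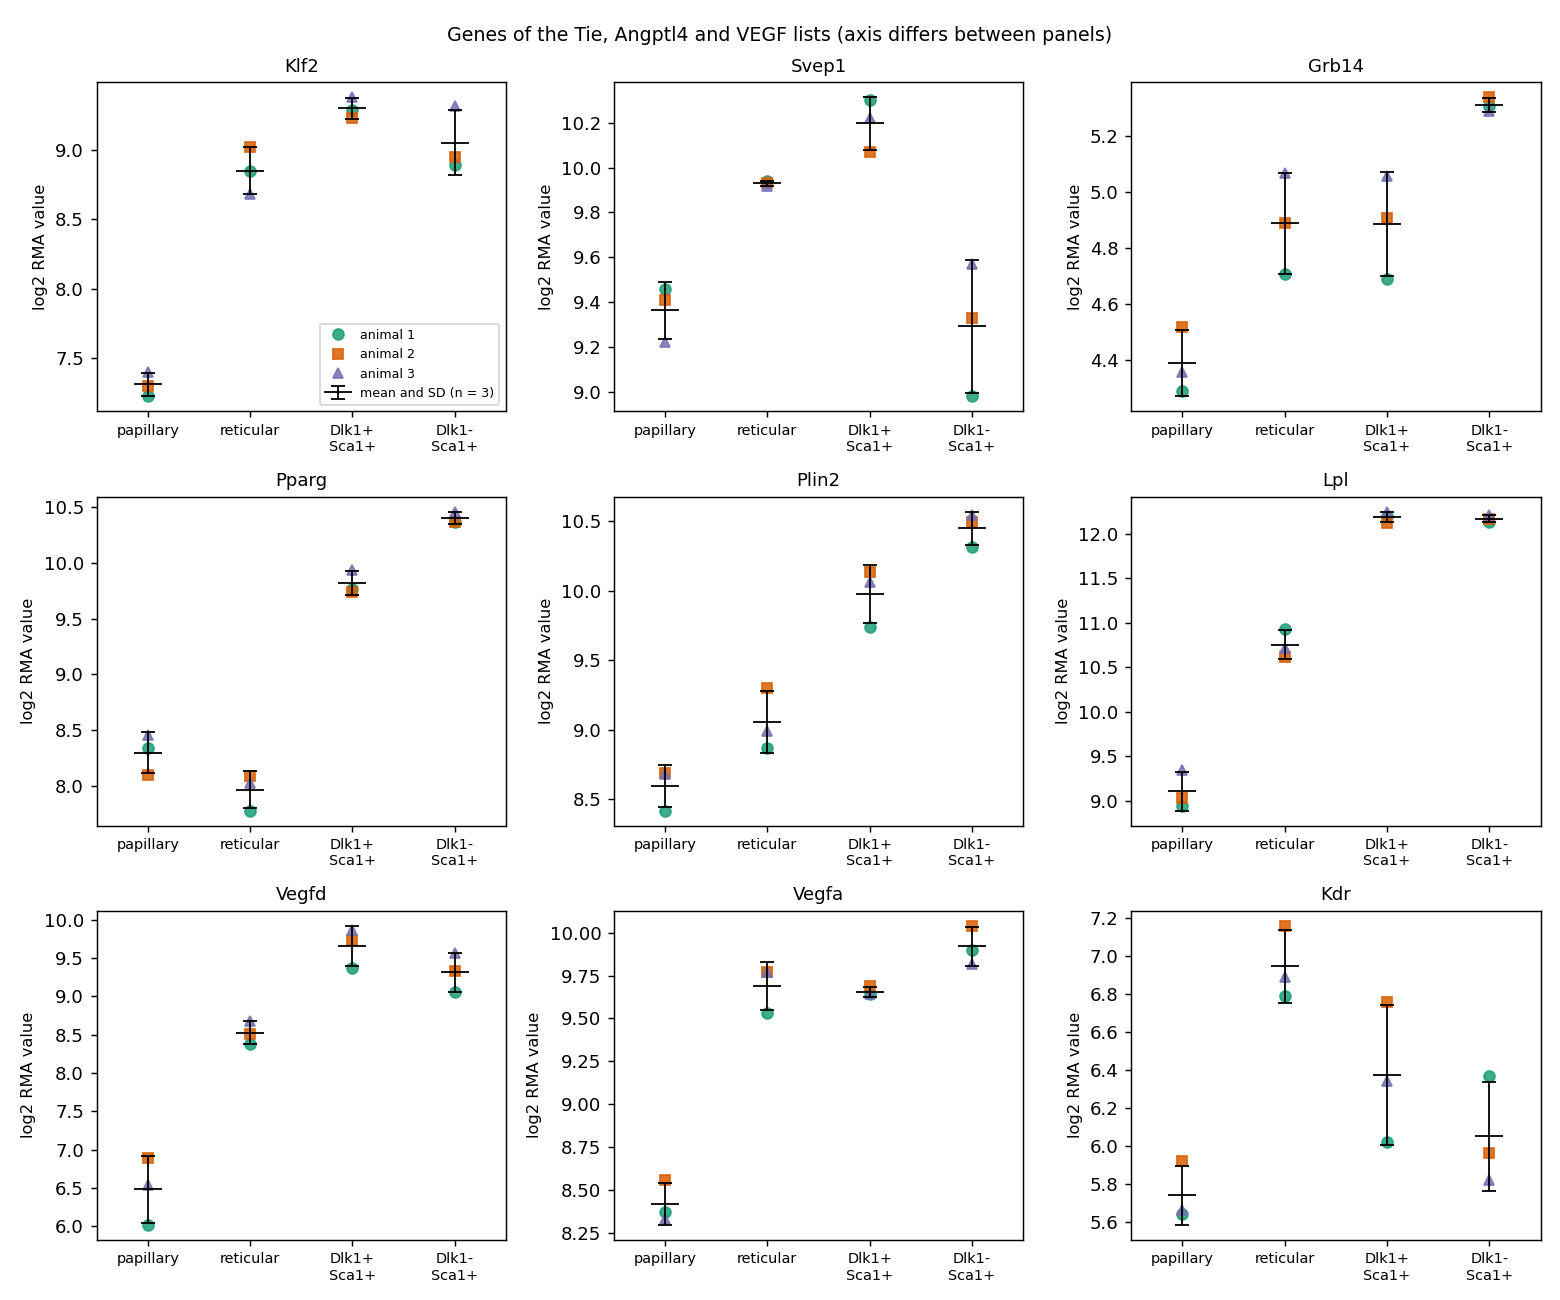
Each of 9 panels gives the log2 RMA value of a listed gene in the 4 populations, with a symbol per animal and the mean and SD over 3 animals as bars; the vertical axis differs between panels. Klf2, Lpl, Vegfd and Vegfa are lowest in papillary cells, and Pparg and Plin2 are highest in Dlk1- Sca1+ cells.

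The genes with patterns most like Tek and Angptl1 were found by the root mean square distance over the 12 arrays, after each gene was centred on its own mean. Nearest to Tek were Slco2a1, a prostaglandin transporter, at a distance of 0.36 log2 units, Ugt1a6a at 0.40, Ugt1a9 at 0.43, the long noncoding RNA gene Morrbid at 0.48 and the metalloprotease gene Adamts18 at 0.53, with Adgrd1 next at 0.54. Ugt1a6a and Ugt1a9 are glucuronosyltransferase genes that share exons, so they are uncertain as separate genes. Slco2a1 averaged 7.46 in papillary, 8.20 in reticular, 9.68 in Dlk1+ Sca1+ cells and 11.31 in Dlk1- Sca1+ cells. It had the same order of populations as Tek, and Adamts18 likewise, at 4.61, 6.92, 8.40 and 10.34. Since these genes were picked for closeness to Tek on the same arrays, the shared order largely follows from that choice.

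Nearest to Angptl1, at larger distances, were the kinase gene Nrk at 0.75, Ptn, a secreted growth factor, at 0.82, the potassium channel gene Kcnj8 at 0.84, Sod3, the extracellular superoxide dismutase, at 0.89 and Thbs4, a matrix glycoprotein, at 0.91, with Rtl3 next at 0.91. Nrk averaged 6.30 in papillary, 9.83 in reticular, 9.82 in Dlk1+ Sca1+ cells and 6.91 in Dlk1- Sca1+ cells. Kcnj8, which is also on the pericyte list, averaged 4.73, 8.10, 7.95 and 5.54. Thbs4 averaged 6.28, 11.30, 8.58 and 6.0, so its Dlk1- Sca1+ level was below papillary, unlike that of Angptl1. With the mean of all probe sets of a gene, 3 of the 5 neighbours of Tek and 2 of the 5 of Angptl1 were kept, and with the most variable probe set 3 of the 5 of Tek.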

How the data were processed

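The authors deposited log2 expression values of 12 arrays, which per the submitters' processing notes came from RMA in affy. The sources used here give no version or genome build. The method corrects background, normalizes by quantiles, summarizes probes and understates differences of dim probe sets. The log2 values ran from 3.30 to 13.27 and were used as deposited. Of 45141 probe sets, 104 were controls, 551 had several symbols, 15588 are unnamed here, and 28898 had 1 symbol from a platform annotation (28689 matched RefSeq by Entrez number, 0 symbols changed). Each of 17097 genes was read from its brightest probe set by the mean of all arrays.

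All 12 arrays entered 1 limma 3.58.1 model (R 4.3.3; 8 residual and 4.47 prior degrees of freedom) with 6 contrasts, two-sided, adjusted by Benjamini-Hochberg within each; calls are at an adjusted p below 0.05. The model was tested on simulated data. The number of arrays, 3 per population, limits the precision. The members, lists and tests were chosen with earlier results of these data known. Named genes are the members, the related family genes, the 4 genes of each pathway list with the largest range of means, the 5 nearest genes of Tek and of Angptl1, and markers that bear on a member.

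Arrays with the same replicate number were taken as the same animal, since the design names 3 littermates; the labels themselves name no animal. Between such arrays the mean r of their deviations from their population means was 0.266 across genes (0.086 to 0.432, 17 of 18 pairs above 0.1). The main fit held the population only and no term for the animal, so its p-values and calls do not use this pairing. Alternatives were a replicate block, other scaling, probe set and moderation choices, a filter on dim genes, fits of single pairs and leaving out animals or arrays.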

Additional observations from a re-analysis of the deposited data

How the results depend on the processing

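Of 678 values of the 6 measured members under an alternative, 18 lost the call, 16 gained it and 0 reversed a call. A further 7, of the untested Tek and Angptl1, moved by more than 1 SD, and the other 637 were counted as kept. Differences that were not called could change sign among these 637. Angptl4 papillary minus reticular was 0.16 in the main fit and -0.76 at the lowest under an alternative. The number of tested members called was 1 for Dlk1- Sca1+ minus Dlk1+ Sca1+, and 2 with arrays centred on their medians, with quantile normalization repeated, with dim genes left out and with robust moderation, Angpt2 being added. It was 3 with the replicate block and with the block as a random effect, Angpt2 and Angptl4 being added; the block changed no other call of the 4 tested members. With single animals or arrays left out it ranged from 1 to 3 there, from 1 to 3 for papillary minus Dlk1- Sca1+ and from 1 to 2 for Dlk1+ Sca1+ minus reticular. The range was 2 to 3 for papillary minus Dlk1+ Sca1+ and for Dlk1- Sca1+ minus reticular. Other processing gave 2 to 4 for papillary minus Dlk1+ Sca1+. There the mean of all probe sets added Angptl4 (limma, adjusted p = 0.0418). Tie1 was not tested when dim genes were left out. Over all genes, Dlk1+ Sca1+ minus reticular had 1441 calls, 2203 with the random block and 498 to 1138 with animals or arrays left out. Dlk1- Sca1+ minus reticular had 3104, and 1780 and 1681 without animal 2 or 3. Dlk1- Sca1+ minus Dlk1+ Sca1+ had 1258, 1897 with the replicate block, 2051 with the random block, and 636, 633 and 532 without animal 1, 2 or 3. Dimness limits Tie1 and papillary Tek and Angptl1, whose signals lay near the lower quartile of the arrays, where RMA compresses differences; larger true ratios cannot be read from these values.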
